A study of Mus musculus with 4 samples.

Results

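Hypoxia-inducible genes are those whose transcription rises when cells run short of oxygen. The 32 described here were given as a list of symbols, and each symbol matched 1 row among the 32285 genes measured in single cells of mouse tumours. The study set 2 libraries from tumours of mice treated with enzyme nanocapsules (Nanocapsule 1 and 2) against 2 libraries from control tumours (Control 1 and 2). All 4 libraries came from C57Bl6 mice aged 6 to 8 weeks and were made with the 10x Genomics 3′ kit, which tags each captured transcript with a unique molecular identifier (UMI). The labels give the tissue as tumour and the cell type as cancer cells. Tumour line, enzymes, dose and the treatment of control mice are not given there, and neither is whether replicates came from separate animals. The p-values below therefore measure only the spread between these libraries, which may be technical.

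Cells sense oxygen through prolyl hydroxylases of the Egln family, which mark the alpha subunits of hypoxia-inducible factor for capture by the von Hippel-Lindau protein and for destruction. When oxygen falls the alpha subunits persist, pair with Arnt and bind short hypoxia response elements near their target genes. The targets slow mitochondrial respiration, favour glycolysis, buffer pH, store glycogen and lipid, and call in blood vessels, and both tumour cells and macrophages in poorly perfused tumour regions are known to use this response.

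RefSeq promoters (build GRCm38.p6, 250 bases before the annotated start) were at hand for 27 of the 32 members, the entries lacking being Ndrg1, Epas1, Bnip3l, Lox and Loxl2. The core of the hypoxia response element, ACGTG or GCGTG on either strand, was found in the promoters of 24 of the 27 members (88.9%), against 41.5% of 27025 genes with a promoter in the same table. A gene counted when any of its promoters matched. Members had more promoters per gene, 38 for 27 members against 32851 for 27025 genes, and so more chances of a match. The narrower ACGTG alone was found for 59.3% of members and 18.5% of all genes, and the palindrome CACGTG, which holds ACGTG on both strands, for 11.1% and 6.86%. Member promoters were also richer in G and C, with a median of 63.8% over 38 promoters against 52.4% over 32851. Car12, Gbe1 and Vhl had no match in this window. The sequences below are shown for the members on which the expression results turn: Bnip3 and Fam162a, high in tumour-like cells and matching repeatedly; Car9 and Egln3, which among members with a promoter entry had the largest differences between tumour-like and macrophage-like cells in each direction; and Gbe1 and Narf, which had 0 matches and 1 match and differed in how closely they followed the other members from cell to cell. Each is written 5′ to 3′ on the gene's own strand, with core matches on either strand in capitals. A match is a run of letters and not a shown binding site.
Bnip3 (chr7:138909520-138909756, minus strand): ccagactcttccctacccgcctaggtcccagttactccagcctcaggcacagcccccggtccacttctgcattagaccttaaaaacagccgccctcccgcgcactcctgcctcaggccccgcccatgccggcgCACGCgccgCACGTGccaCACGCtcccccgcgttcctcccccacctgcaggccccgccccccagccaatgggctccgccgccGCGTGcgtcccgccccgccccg
Fam162a (chr16:36071595-36071811, minus strand): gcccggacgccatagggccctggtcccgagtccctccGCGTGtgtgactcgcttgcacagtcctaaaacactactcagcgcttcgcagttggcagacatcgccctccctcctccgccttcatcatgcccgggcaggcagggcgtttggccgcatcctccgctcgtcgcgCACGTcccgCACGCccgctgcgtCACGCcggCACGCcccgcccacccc
Car9 (chr4:43506996-43507025, plus strand): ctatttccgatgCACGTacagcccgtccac
Egln3 (chr12:54203875-54204124, minus strand): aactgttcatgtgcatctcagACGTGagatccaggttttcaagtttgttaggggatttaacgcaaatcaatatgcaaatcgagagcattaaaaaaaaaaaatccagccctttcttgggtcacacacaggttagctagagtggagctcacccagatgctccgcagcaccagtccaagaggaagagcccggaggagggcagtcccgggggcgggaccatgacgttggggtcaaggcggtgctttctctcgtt
Gbe1 (chr16:70313699-70313948, plus strand): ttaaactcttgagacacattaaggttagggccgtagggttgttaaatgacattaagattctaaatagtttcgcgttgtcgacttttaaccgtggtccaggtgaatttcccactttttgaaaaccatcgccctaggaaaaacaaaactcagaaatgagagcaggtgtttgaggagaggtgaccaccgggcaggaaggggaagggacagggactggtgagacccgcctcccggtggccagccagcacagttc
Narf (chr11:121236986-121237235, plus strand): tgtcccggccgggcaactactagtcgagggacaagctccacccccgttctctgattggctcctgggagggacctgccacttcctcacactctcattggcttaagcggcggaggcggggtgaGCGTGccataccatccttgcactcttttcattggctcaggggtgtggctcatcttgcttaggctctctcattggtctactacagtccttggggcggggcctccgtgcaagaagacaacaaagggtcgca

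Bnip3 held 5 core matches in its 237 bases, the palindrome counting on both strands, and Fam162a 5 in its 217 bases. Car9 held 1 match in the 30 bases shown, and Egln3 and Narf 1 each in 250 bases. In the GENCODE annotation of the same build the Bnip3 gene spans chr7:138890836-138909519, Fam162a chr16:36043761-36071594, Car9 chr4:43506966-43513729, Egln3 chr12:54178981-54203860, Gbe1 chr16:70313949-70569716 and Narf chr11:121237253-121255856. All 6 are protein-coding, and the stretches shown lie upstream of these spans, except the 30 bases of Car9, which lie just before the RefSeq start and inside the GENCODE gene.

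The libraries held 98943390 to 140491491 UMIs and 1076 to 3255 cells called by UMI number (7044 in all), with library medians of 38034 UMIs per cell in Control 1 to 85275 in Nanocapsule 2. Pairs of libraries shared 0 to 13 cell barcodes. Levels are in CPM, UMIs scaled to a common total of 1000000 per sum. Values of tested genes are further scaled by edgeR's TMM normalisation factors within each comparison, so the same cells have somewhat different values in different comparisons, while sums over genes and pigment levels are not. Cells were clustered without the members, and classes were named from fixed markers. Melanocytic tumour-like cells numbered 1442 and 907 in Nanocapsule 1 and 2, against 3132 and 942 in Control 1 and 2. All 9 pigment cell markers were present in them, summing to 13111 to 14368 CPM, and 0 of 9 macrophage markers reached 5 CPM. Macrophage-like cells, taken at a lower threshold of 1500 UMIs because they hold less RNA, numbered 92 and 129 in Nanocapsule 1 and 2, against 142 and 170 in Control 1 and 2. All 9 macrophage markers were present in them (6719 to 8171 CPM summed), as were all 6 monocyte markers (1204 to 1551 CPM), so the class holds monocytes too. They also carried transcripts of the pigment marker list, at 13.2% and 4.59% of the tumour-like level in Nanocapsule 1 and 2 and at 11.04% and 7.46% in Control 1 and 2. This sets the level at or below which a member's ratio between the classes, on the unscaled counts, is read here as background. The list includes Gpnmb and Mitf, and whether macrophage-like cells made part of this sum themselves was not tested.

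Members divided between the classes. With both classes of each library at 1500 UMIs or more, 30 of the 32 members passed the filter on low counts, and 11 were higher in tumour-like cells and 7 lower (edgeR quasi-likelihood test blocked on library, Benjamini-Hochberg adjusted p under 0.05). Across all 15241 genes tested, 36.0% were higher and 27.2% lower, so both shares of members are near the background. The median log2 fold change, tumour-like over macrophage-like, was 0.33 for members and 0.29 for all genes. In 27 members the macrophage-like level stood above the pigment background in every library. The exceptions were Car9, above it in 2 libraries, Car12 and Loxl2, above it in 1, and Stc2 and Lox, in 0.

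**Figure D1:**
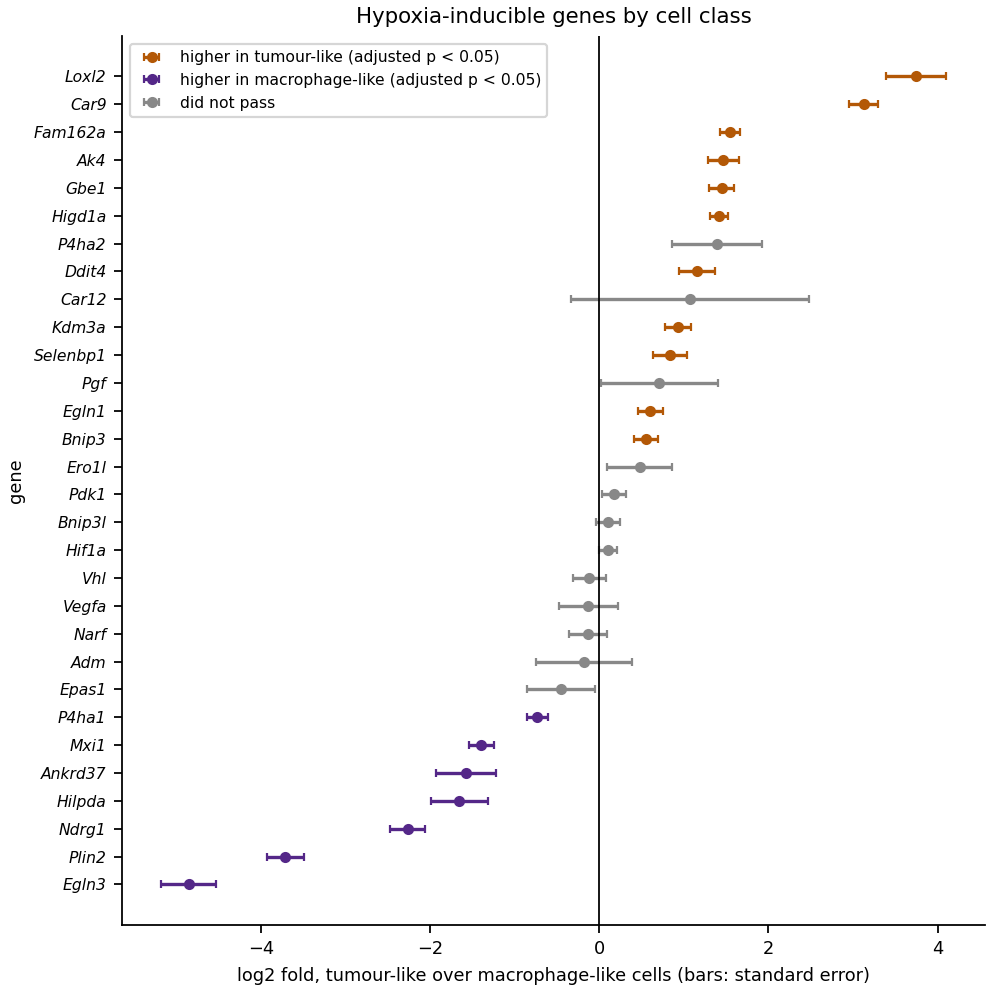
Log2 fold change of each of the 30 tested members, tumour-like over macrophage-like cells, with its standard error. Points to the right are higher in tumour-like cells. Loxl2 and Car9 lie farthest right at 3.75 and 3.13, Egln3 and Plin2 farthest left at -4.86 and -3.71, and colour marks the 11 higher, 7 lower and 12 members that did not pass.

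Of the oxygen sensors, Egln3 was called lower in tumour-like cells and Egln1 higher. Egln3, the prolyl hydroxylase most strongly induced by hypoxia in many cell types, measured 2.69 and 2.07 CPM in tumour-like cells of Nanocapsule 1 and 2 and 3.07 and 1.92 CPM in those of Control 1 and 2. In macrophage-like cells it measured 163 and 57.7 CPM in Nanocapsule 1 and 2 and 57.0 and 38.3 CPM in Control 1 and 2. The classes did not overlap, and the log2 fold change was -4.86 ± 0.33 (SE; edgeR adjusted p = 7.6e-06). Egln1, the main hydroxylase at normal oxygen, was higher in tumour-like cells, at 120 to 264 CPM over the 4 libraries against 86.8 to 242 CPM (0.60 ± 0.15, edgeR adjusted p = 0.00275). Hif1a, the alpha subunit present in most cells, measured 179 to 227 CPM in tumour-like and 154 to 253.5 CPM in macrophage-like cells and did not pass (0.10 ± 0.11, edgeR adjusted p = 0.418). Vhl, at 17.2 to 22.2 against 12 to 27.9 CPM, did not pass either, nor did Epas1, the alpha subunit best known from endothelium, at 4.14 to 5.30 against 1.97 to 15.9 CPM. With cells of the higher UMI threshold alone, Hif1a was called higher in tumour-like cells and Epas1 lower. Epas1 was also called lower when finer clustering removed monocyte-like cells from the macrophage-like class.

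The mitochondrial members Higd1a, Fam162a, Ak4 and Bnip3 and the acid-handling Car9 were among the 11 higher in tumour-like cells. Higd1a, a respiratory chain assembly factor, measured 918 and 768 CPM in tumour-like cells of Nanocapsule 1 and 2 and 929 and 508 CPM in those of Control 1 and 2, against 416 and 270.3 CPM and 274 and 213 CPM in macrophage-like cells of the same libraries (1.41 ± 0.11, edgeR adjusted p = 4.11e-10). Fam162a, a mitochondrial membrane protein linked to cell death, measured 1004 and 708 CPM (Nanocapsule) and 1049 and 514 CPM (Control) in tumour-like cells, against 463 and 246 CPM (Nanocapsule) and 287 and 159 CPM (Control) in macrophage-like cells (1.55 ± 0.12, edgeR adjusted p = 6.86e-10). Every tumour-like value of both genes lay above every macrophage-like value. Ak4, a mitochondrial adenylate kinase, was higher at 32.2 to 59.1 against 8.57 to 31.9 CPM (1.46 ± 0.18). Bnip3, a mitophagy receptor, was higher by less (0.55 ± 0.14, edgeR adjusted p = 0.00449), at 269.5 to 554 against 201 to 529 CPM, and did not pass when finer clustering removed monocyte-like cells from the class (0.14, edgeR adjusted p = 0.348). Its relative Bnip3l and the pyruvate dehydrogenase kinase Pdk1 did not pass, at 0.10 ± 0.15 and 0.17 ± 0.14. Bnip3l was called higher in tumour-like cells without Nanocapsule 1 and with cells of the higher UMI threshold alone. Car9, the cell-surface carbonic anhydrase that exports acid and is a widely used hypoxia marker, measured 182 and 123 CPM (Nanocapsule) and 163 and 74.7 CPM (Control) in tumour-like cells, against 27.9 and 11.8 CPM (Nanocapsule) and 11.6 and 10.9 CPM (Control) in macrophage-like cells. Its log2 fold change was 3.13 ± 0.17 (edgeR adjusted p = 1.34e-12), and its macrophage-like level exceeded the pigment background in 2 libraries and is read as background in the others, on the unscaled counts (5.98 to 11.9% of the tumour-like level). Car12, a second surface carbonic anhydrase, did not pass (1.07 ± 1.41).

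Among metabolic members the glycogen gene Gbe1 was called higher in tumour-like cells and the lipid droplet genes Plin2 and Hilpda lower. With so few genes this is no division by function. Gbe1, the glycogen branching enzyme, was higher in tumour-like cells, at 84.9 to 152 against 33.7 to 79.8 CPM (1.45 ± 0.15, edgeR adjusted p = 6.08e-08). Plin2, which coats lipid droplets, measured 59.3 and 59.7 CPM (Nanocapsule) and 53.4 and 46.9 CPM (Control) in tumour-like cells, against 1114 and 501 CPM (Nanocapsule) and 869 and 541 CPM (Control) in macrophage-like cells. Plin2 did not overlap between the classes, at -3.71 ± 0.22 (edgeR adjusted p = 5.7e-06). Hilpda, which inhibits droplet lipolysis, measured 133 and 121 CPM (Nanocapsule) and 102 and 65.1 CPM (Control) in tumour-like cells, against 718 and 203 CPM (Nanocapsule) and 388 and 180 CPM (Control) in macrophage-like cells. Each library was higher in macrophage-like cells, at -1.65 ± 0.34 (edgeR adjusted p = 0.0178). The call for Hilpda was lost without Control 1 (-1.54, edgeR adjusted p = 0.074), without Control 2 (-1.72, edgeR adjusted p = 0.0823) and with cells of the higher UMI threshold alone (-1.02, edgeR adjusted p = 0.12). Selenbp1, a methanethiol oxidase, was higher in tumour-like cells (0.84 ± 0.20), but its last 600 bases match Selenbp2 at 98.3%, so its counts are uncertain.

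Among the stress and transcription regulators calls went both ways. Ddit4, which restrains the mTOR kinase complex, was higher in tumour-like cells at 62.4 to 105 against 27.6 to 63.9 CPM (1.16 ± 0.21, edgeR adjusted p = 0.00122), as was Kdm3a, a histone demethylase, at 58.2 to 83.2 against 29.6 to 64.9 CPM (0.93 ± 0.15). Ndrg1, a stress-response protein that limits metastasis in several models, measured 50.5 and 47.2 CPM (Nanocapsule) and 43.0 and 19.9 CPM (Control) in tumour-like cells, against 400.1 and 176 CPM (Nanocapsule) and 149 and 101 CPM (Control) in macrophage-like cells. The classes did not overlap (-2.26 ± 0.21, edgeR adjusted p = 2.61e-05). Mxi1, a Myc antagonist, was lower in tumour-like cells at 39.5 to 77.0 against 123 to 277 CPM (-1.40 ± 0.15, edgeR adjusted p = 1.07e-06), and Ankrd37, an ankyrin repeat protein of little-known function, at 18.5 to 40.2 against 38.3 to 240.5 CPM (-1.57 ± 0.35, edgeR adjusted p = 0.0193). With cells of the higher UMI threshold alone the calls were lost for Ndrg1 (-1.66, edgeR adjusted p = 0.0675) and Ddit4 (1.62, edgeR adjusted p = 0.115), and Ankrd37 lost its call without Nanocapsule 2 (edgeR adjusted p = 0.086) or without Control 2 (edgeR adjusted p = 0.0562). The call for Ankrd37 was also lost without a filter on low counts. Narf, a prelamin-binding protein, did not pass (-0.13 ± 0.23).

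Of the angiogenic, secretory and matrix members, Loxl2 was higher in tumour-like cells and P4ha1 lower. Vegfa, the main vessel growth factor, measured 69.2 to 148 CPM in tumour-like cells and 81.4 to 297 CPM in macrophage-like cells and did not pass (-0.13 ± 0.35, edgeR adjusted p = 0.774). With finer clustering Vegfa was called lower in tumour-like cells, and with cells of the higher UMI threshold alone it was called higher. Its relative Pgf (0.71 ± 0.69), the vasodilator peptide Adm (-0.18 ± 0.57) and the disulfide-forming oxidase Ero1l (0.48 ± 0.39) did not pass either. Without Nanocapsule 1, Pgf, Adm and Ero1l were each called higher in tumour-like cells. P4ha1, a collagen prolyl hydroxylase subunit, was lower in tumour-like cells at 52.7 to 77.4 against 81.1 to 166 CPM (-0.73 ± 0.13, edgeR adjusted p = 3.77e-05), while its paralogue P4ha2 did not pass (1.39 ± 0.53). P4ha2 was called higher in tumour-like cells with finer clustering, without Nanocapsule 1, without Nanocapsule 2 and without the cells highest in pigment UMIs. Loxl2, which crosslinks collagen, measured 29.2 and 23.4 CPM (Nanocapsule) and 24.4 and 13.4 CPM (Control) in tumour-like cells, against 2.00 and 0.493 CPM (Nanocapsule) and 3.17 and 1.71 CPM (Control) in macrophage-like cells. Its log2 fold change was 3.75 ± 0.35 (edgeR adjusted p = 9.04e-09), with macrophage-like counts above the pigment background in 1 library. Stc2, a secreted glycoprotein, and Lox, the founding collagen oxidase of the family, were too low for the test.

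Within tumour-like cells the members were concentrated in 2 of the clusters, which were picked out because their member sums were highest, so the levels in them are a description and not a test. In one, led by Nppb and Pgf (910 cells), member UMIs summed to 11668 CPM, and in the other, led by Hspb1 and Espn (451 cells), to 10249 CPM; the highest of the remaining clusters reached 5444 CPM. Over 29 members with enough counts, the level in these clusters against the other tumour-like cells had a median ratio of 3.53. The ratio exceeded 1 in all 4 libraries for 27 members and 2 in all 4 libraries for 19. Pgf stood highest at 15.6 (9.04 to 28.4 over the libraries), followed by Ndrg1 at 12.1, Ero1l at 8.73, Hilpda at 7.25, Adm at 6.70 and Vegfa at 6.68. Bnip3 reached 4.06 and Car9 4.35. Hif1a had a ratio of only 1.17 (1.11 to 1.27), and the ratios of Narf (0.91) and Epas1 (0.78) lay below 1.

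**Figure D2:**
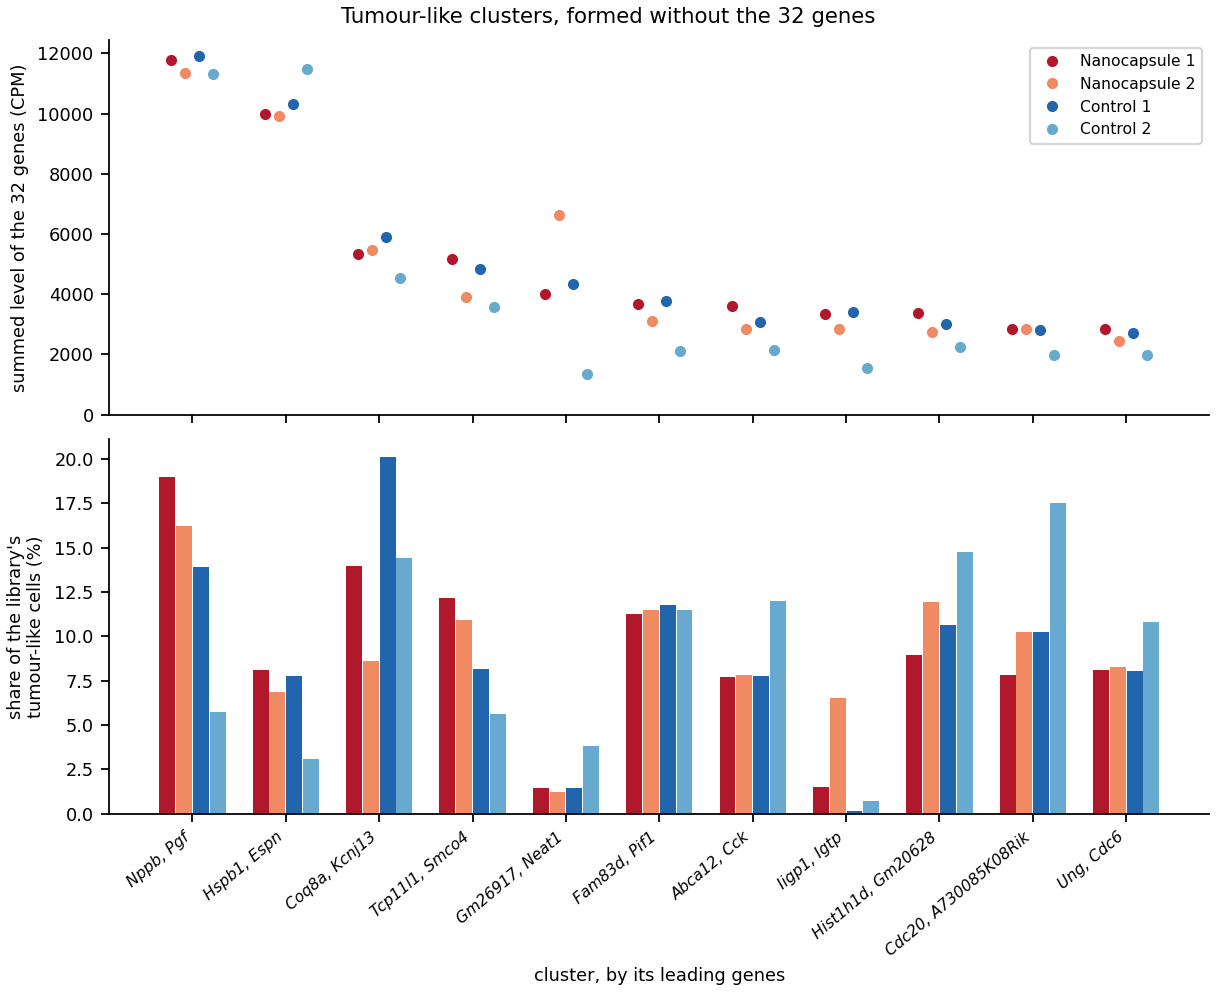
Summed member CPM in each tumour-like cluster and library (top) and the share of each library's tumour-like cells in each cluster (bottom). The clusters led by Nppb and Hspb1 stand above the rest in every library, and together they hold 27.1% and 23.0% of cells in Nanocapsule 1 and 2 and 21.6% and 8.81% in Control 1 and 2.

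The share of tumour-like cells in these clusters was 27.1% in Nanocapsule 1 (391 of 1442 cells, exact 95% interval 24.8 to 29.5%) and 23.0% in Nanocapsule 2 (209 of 907, 20.3 to 25.9%), against 21.6% in Control 1 (678 of 3132, 20.2 to 23.1%) and 8.81% in Control 2 (83 of 942, 7.08 to 10.8%). These intervals cover counting error only. Control 2 stood apart with the lowest share, and the interval of Control 1 overlapped that of Nanocapsule 2. Inside the clusters, which the choice made high in every library, the member sum was 11140 and 10880 CPM in Nanocapsule 1 and 2 and 11233 and 11391 CPM in Control 1 and 2. Outside them it was 3996 and 3280 CPM in Nanocapsule 1 and 2, against 3955 and 2515 CPM in Control 1 and 2.

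Most members varied together from cell to cell. Each tumour-like cell was thinned to 8000 UMIs, and each member was correlated, within each library, with the summed UMIs of the other members. Over the 27 members with at least 0.05 UMIs per cell the median correlation was 0.464, against -0.03 for 9452 other genes of that level, whose 99th percentile was 0.282. These points share a library and a fixed depth, and the correlations are descriptive. Bnip3 followed the others most closely, at 0.827 and 0.845 in Nanocapsule 1 and 2 and 0.839 and 0.837 in Control 1 and 2. Higd1a averaged 0.743 over the libraries, Ero1l 0.740, Car9 0.679, Egln1 0.660, Fam162a 0.654, Bnip3l 0.635, Vegfa 0.629 and Selenbp1 0.602. The next group, from Gbe1 (0.543) through Hilpda, Ddit4, Ndrg1, Mxi1 and Ankrd37 to P4ha2 (0.412), lay above 0.4, and Adm, Loxl2, Pgf, Pdk1, Ak4, P4ha1 and Kdm3a between 0.348 and 0.277. The lowest were Plin2 (0.149), Vhl (0.144), Hif1a (0.108) and Narf (0.03), which lay above 96.3%, 96.1%, 93.9% and 80.9% of the other genes. Gbe1 and Narf, whose promoters are printed above, thus lay far apart with 0 matches and 1 match. The closest pairs were Bnip3 with Higd1a (0.733), with Ero1l (0.676) and with Fam162a (0.672).

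**Figure D3:**
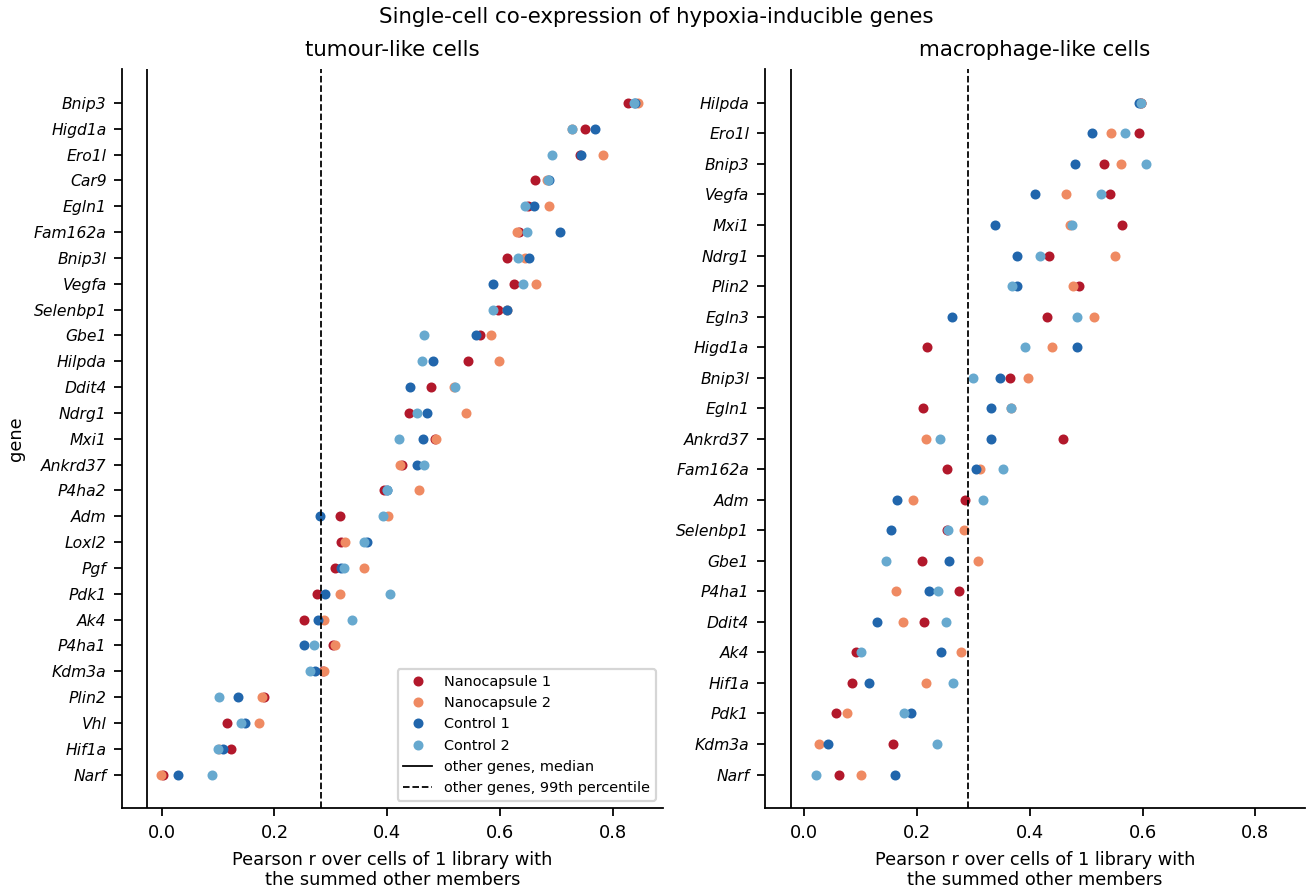
Correlation of each member with the sum of the other members across cells, 1 point per library, in tumour-like (left) and macrophage-like cells (right), with lines at the median and 99th percentile of other genes. In tumour-like cells Bnip3 leads at 0.837 on average and Narf is lowest at 0.03; in macrophage-like cells Hilpda leads at 0.597.

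In macrophage-like cells, thinned to 3000 UMIs (488 cells, with 45 shallower cells left out), the median correlation was 0.312 over 23 members, against -0.02 over 6438 other genes with a 99th percentile of 0.290. The order differed from that in tumour-like cells. Hilpda led at 0.597, followed by Ero1l at 0.554, Bnip3 at 0.545, Vegfa at 0.485, Mxi1 at 0.462 and Ndrg1 at 0.445. Plin2 reached 0.427 and Egln3, too rare to score in tumour-like cells, 0.422. Kdm3a (0.115) and Narf (0.086) were lowest. Pigment UMIs per cell also went with the member sum in this class, at correlations of 0.272 to 0.375 over the libraries, and the part this played was not tested. The genes outside the list that followed the member sum most closely in tumour-like cells were Bsg (0.678), Pgk1 (0.670), Ier3, Espn, Gapdh, Gpi1, Anxa2, Aldoa, Pkm and Fau (0.522), of which Pgk1, Gapdh, Gpi1, Aldoa and Pkm encode glycolytic enzymes and Bsg a chaperone of lactate transporters. In macrophage-like cells they were Aldoa (0.623), Mif, Basp1, Ldha and Pkm (0.552).

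Nanocapsule treatment was then set against control in tumour-like cells, with UMIs summed per library. Of the 32 members 30 passed the filter on low counts and 0 were called (edgeR quasi-likelihood test, adjusted p under 0.05), as for 0.0% of all 16203 genes. An unadjusted p under 0.05 was reached by 3 members, against 7.7% of all genes. DESeq2 called 0 members, beside 102 of all 16203 genes. In 27 of the 30 the log2 fold change, Nanocapsule over Control, was above 0, with a median of 0.28 beside 0.001 over all genes. The pattern turned on Control 2, which was the lowest library for 27 of the 30 members, as for 30% of all genes. Without Control 2 the median was -0.05 and 14 members changed sign; without Control 1 it was 0.73 and 9 members were called (Adm, Ddit4, Ero1l, Gbe1, Hilpda, Mxi1, Ndrg1, Pgf and Vegfa), beside 0.291% of all genes. In these class sums, more cells at a high level and more RNA per cell cannot be told apart.

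**Figure D4:**
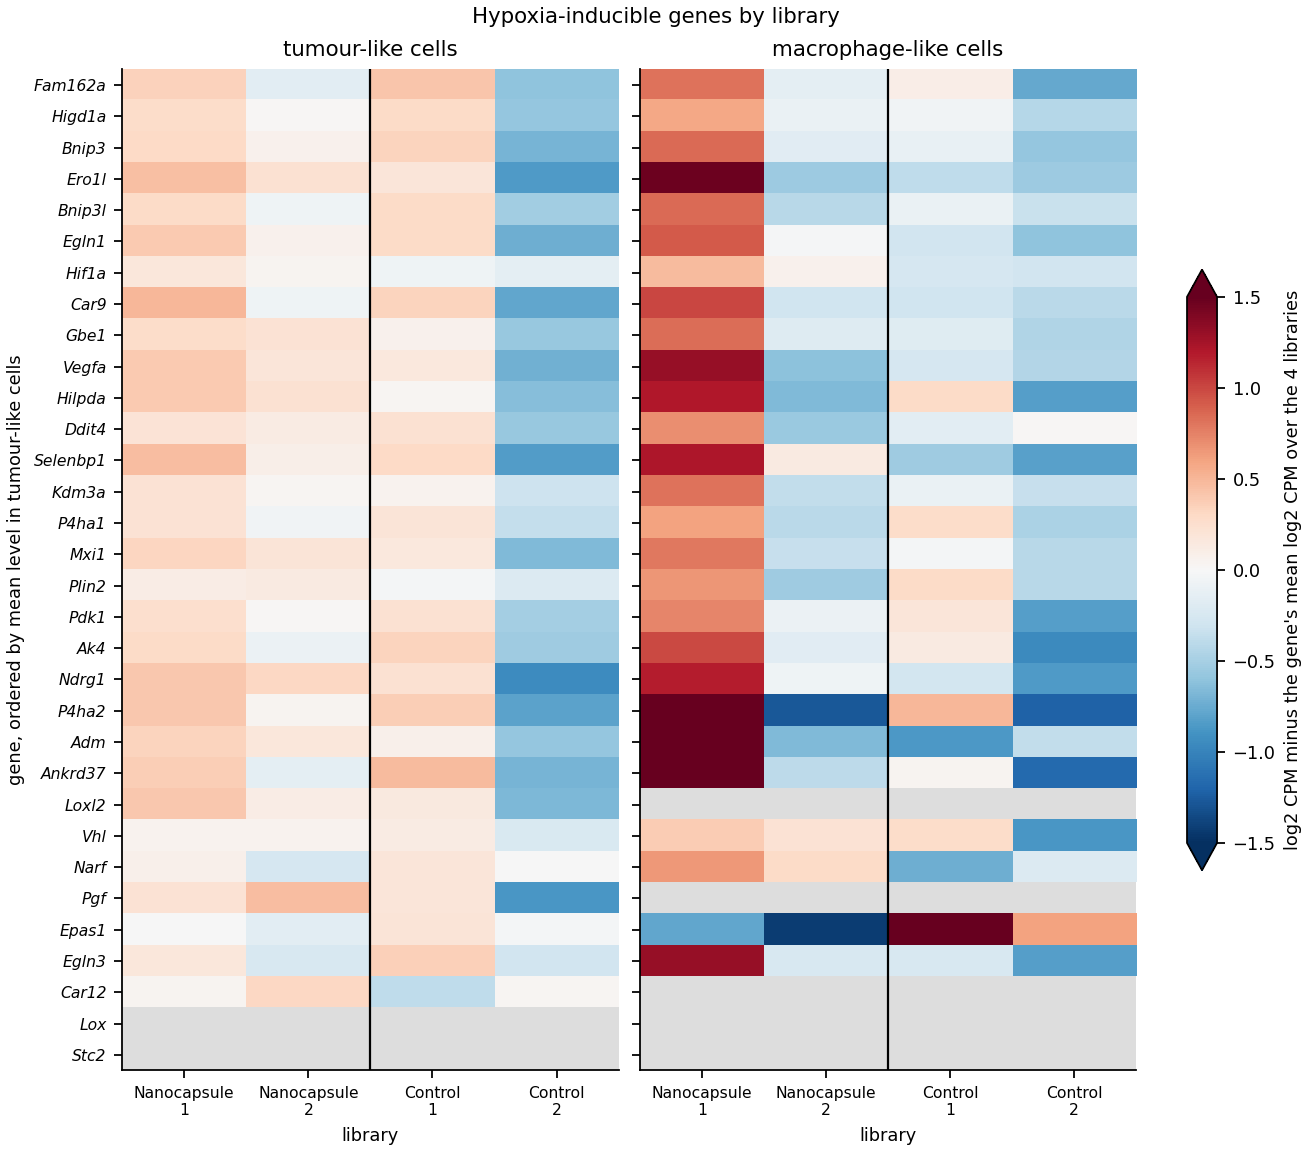
Level of each member in each library as log2 CPM minus the gene's mean over the 4 libraries, for tumour-like (left) and macrophage-like cells (right), with Nanocapsule libraries left of Control libraries; grey marks members that did not pass the filter and colours stop at 1.5 either way. In tumour-like cells Control 2 is lowest for 27 of 30 members, and in macrophage-like cells Nanocapsule 1 is highest for 26 of 27.

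In 11 of the 30 members both Nanocapsule libraries lay above both Control libraries, and in 0 did they lie below. Over all genes these shares were 19.9% and 18.9%. Hilpda measured 146 and 129.7 CPM in Nanocapsule 1 and 2, against 113 and 71.1 CPM in Control 1 and 2 (0.58 ± 0.22, edgeR adjusted p = 0.644). Plin2 measured 65.3 and 66.3 CPM in Nanocapsule 1 and 2, against 59.5 and 52.4 CPM in Control 1 and 2 (0.23 ± 0.08, edgeR adjusted p = 0.644). Hif1a measured 254 and 231 CPM in Nanocapsule 1 and 2, against 216 and 203 CPM in Control 1 and 2 (0.21 ± 0.08, edgeR adjusted p = 0.644). These 3 were the members with an unadjusted p under 0.05, and in each the lower Nanocapsule library lay close above Control 1.

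The angiogenic members Vegfa, Adm and Pgf were among the 11. Vegfa measured 165 and 143 CPM in Nanocapsule 1 and 2, against 140.2 and 76.1 CPM in Control 1 and 2 (0.51 ± 0.29, edgeR adjusted p = 0.722). Adm measured 43.1 and 38.7 CPM in Nanocapsule 1 and 2, against 36.0 and 23.0 CPM in Control 1 and 2 (0.47 ± 0.21). Pgf measured 17.6 and 20.9 CPM in Nanocapsule 1 and 2, against 17.2 and 8.24 CPM in Control 1 and 2 (0.59 ± 0.35). In each gene Control 1 lay close to the Nanocapsule libraries and Control 2 well under them. Ero1l stood at 578 and 495 CPM in Nanocapsule 1 and 2, against 481 and 235 CPM in Control 1 and 2 (0.58 ± 0.34). Gbe1 stood at 169.5 and 162 CPM in Nanocapsule 1 and 2, against 147 and 94.5 CPM in Control 1 and 2 (0.46 ± 0.20). Ndrg1 stood at 54.1 and 50.7 CPM in Nanocapsule 1 and 2, against 47.9 and 21.2 CPM in Control 1 and 2 (0.60 ± 0.37). The same order held for Mxi1, at 85.9 and 78.6 CPM in Nanocapsule 1 and 2, against 77.0 and 43.5 CPM in Control 1 and 2. Car12 was also in order, but at 37 and 43 UMIs in Nanocapsule 1 and 2, against 38 and 34 UMIs in Control 1 and 2.

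The abundant mitochondrial and acid-handling members overlapped between the groups. Bnip3 measured 602 and 511 CPM in Nanocapsule 1 and 2, against 619 and 303 CPM in Control 1 and 2 (0.27 ± 0.34, edgeR adjusted p = 0.874). Higd1a measured 1025 and 856 CPM in Nanocapsule 1 and 2, against 1037 and 569.7 CPM in Control 1 and 2. Fam162a measured 1119 and 791 CPM in Nanocapsule 1 and 2, against 1171 and 578 CPM in Control 1 and 2. For these genes Control 1 was the highest library of the 4 and Control 2 the lowest. Car9 measured 204 and 138 CPM in Nanocapsule 1 and 2, against 182 and 83.8 CPM in Control 1 and 2 (0.36 ± 0.40, edgeR adjusted p = 0.857). Egln1, the hydroxylase, measured 296 and 235 CPM in Nanocapsule 1 and 2, against 274 and 136 CPM in Control 1 and 2. Bnip3l measured 287 and 225 CPM in Nanocapsule 1 and 2, against 287 and 163 CPM in Control 1 and 2. Selenbp1 and Ddit4 had the same shape, with Control 1 between or above the Nanocapsule libraries: Selenbp1 measured 115 and 89.0 CPM in Nanocapsule 1 and 2, against 103 and 46.6 CPM in Control 1 and 2, and Ddit4 measured 114 and 108 CPM in Nanocapsule 1 and 2, against 116 and 66.8 CPM in Control 1 and 2.

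None of the remaining tumour-like members was called. Kdm3a measured 93.0 and 81.9 CPM in Nanocapsule 1 and 2, against 83.4 and 64.8 CPM in Control 1 and 2. P4ha1 measured 85.1 and 70.6 CPM in Nanocapsule 1 and 2, against 83.3 and 57.2 CPM in Control 1 and 2. Pdk1 measured 67.1 and 57.1 CPM in Nanocapsule 1 and 2, against 65.6 and 39.5 CPM in Control 1 and 2. Ak4, P4ha2, Ankrd37, Loxl2 and Vhl had log2 fold changes of 0.09 to 0.47, none past the threshold. Only Epas1 (-0.17), Narf (-0.17) and Egln3 (-0.09) lay below 0 among those tested. Lox, at 0 UMIs in both Nanocapsule libraries against 12 and 45 UMIs in Control 1 and 2, and Stc2, at 0 against 2 and 0 UMIs, did not pass the filter.

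The tumour-like cells were also compared inside and outside the clusters high in members. Since these were chosen for their member sums, after the values had been seen, the values on either side are a description that the choice itself shapes. Inside those clusters the median log2 fold change over 29 members was -0.03, with 10 above 0, 3 members higher in both Nanocapsule libraries (Ero1l, Plin2 and Hif1a) and 6 lower (Bnip3, Ankrd37, Egln3, Higd1a, Bnip3l and Narf), against 19.9% higher and 19.0% lower over all genes there. In the other tumour-like cells it was 0.16 over 30 members, 25 were above 0, and Plin2, Hif1a and Gbe1 were higher in both Nanocapsule libraries and 0 lower, against 18.8% and 17.2% of all genes there. Control 2 was still the lowest library there for 27 of 30.

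**Figure D5:**
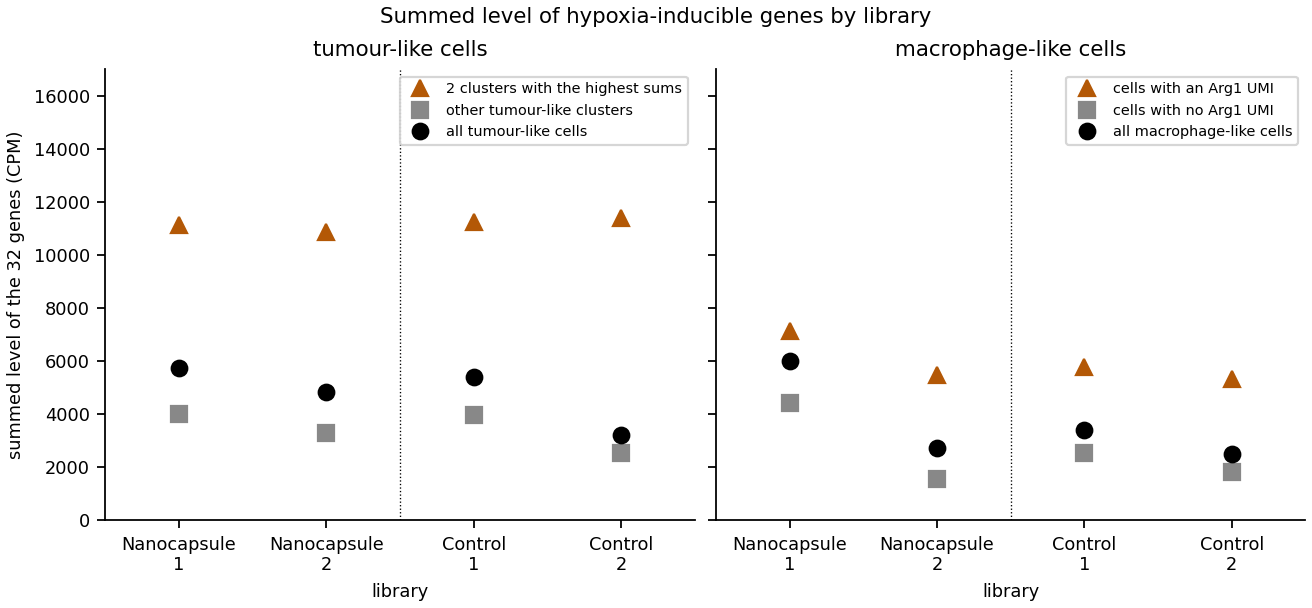
Summed member CPM in each library. Left, tumour-like cells in the 2 clusters highest in members, in the other clusters and in all. Right, macrophage-like cells with an Arg1 UMI, without one and all. The highest tumour-like clusters span 10880 to 11391 CPM, while all macrophage-like cells reach 5983 CPM in Nanocapsule 1 against 2481 to 3388 CPM in the other libraries.

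In macrophage-like cells 27 members passed the filter on low counts and 0 were called (edgeR quasi-likelihood test, adjusted p under 0.05), as for 0.0% of all 9067 genes. DESeq2 called 0 members, beside 9 of all 9067 genes. An unadjusted p under 0.05 was reached by 6 members (Ndrg1, Egln1, Selenbp1, Hif1a, Epas1 and Narf), against 3.25% of all genes. The log2 fold change, Nanocapsule over Control, was above 0 for 26 of the 27, with a median of 0.72 beside 0.01 over all genes. Here the pattern turned on Nanocapsule 1, the highest library for 26 of 27 members, as for 31.0% of all genes. Without Nanocapsule 1 the median was 0.13 and 11 members changed sign, while without Nanocapsule 2 it was 1.16 and 19 members were called, beside 3.02% of all genes; without a filter on low counts Egln1, Egln3, Ndrg1 and Selenbp1 were called, beside 0.509% of all genes. Finer clustering divided the class into macrophage-like cells (49 and 31 in Nanocapsule 1 and 2, 79 and 91 in Control 1 and 2) and monocyte-like cells (43 and 98 in Nanocapsule 1 and 2, 63 and 80 in Control 1 and 2), so monocyte-like cells made up most of the class in Nanocapsule 2. Values within the finer classes are given below. The summed members measured 5983 and 2711 CPM in Nanocapsule 1 and 2, against 3388 and 2481 CPM in Control 1 and 2. Pigment transcripts in the same cells measured 1777 and 608 CPM in Nanocapsule 1 and 2, against 1586 and 963 CPM in Control 1 and 2, and without the 10% of cells highest in pigment UMIs the median was 0.64, with 0 called.

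In 6 members both Nanocapsule libraries lay above both Control libraries (15.8% of all genes), and in 1 below (15.4% of all genes). Ndrg1 measured 370.2 and 157 CPM in Nanocapsule 1 and 2, against 135 and 90.9 CPM in Control 1 and 2 (1.22 ± 0.42). Egln1 measured 223 and 117 CPM in Nanocapsule 1 and 2, against 96.9 and 78.1 CPM in Control 1 and 2 (0.95 ± 0.33). Selenbp1 measured 84.0 and 39.6 CPM in Nanocapsule 1 and 2, against 24.9 and 20.5 CPM in Control 1 and 2 (1.42 ± 0.40). The groups were apart in each, by a narrow margin for Egln1 and Ndrg1, and edgeR's adjusted p was 1.0 for every member of this comparison. Hif1a measured 234.5 and 176 CPM in Nanocapsule 1 and 2, against 142 and 139 CPM in Control 1 and 2 (0.54 ± 0.21). Narf measured 24.9 and 19.4 CPM in Nanocapsule 1 and 2, against 9.60 and 13.9 CPM in Control 1 and 2 (0.84 ± 0.35). Epas1 ran the other way, at 3 and 4 UMIs in Nanocapsule 1 and 2, against 15 and 14 UMIs in Control 1 and 2 (-2.23 ± 0.66). Car9 was apart only just, at 25.9 and 10.6 CPM in Nanocapsule 1 and 2, against 10.6 and 9.76 CPM in Control 1 and 2, and its log2 fold change of 0.76 fell to -0.0019 when the tenth of cells richest in pigment UMIs was left out.

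Other abundant members overlapped between the groups in macrophage-like cells, with Nanocapsule 1 highest. Ero1l measured 714 and 177 CPM in Nanocapsule 1 and 2, against 199 and 177 CPM in Control 1 and 2 (1.23 ± 0.57). Hilpda measured 664 and 181 CPM in Nanocapsule 1 and 2, against 352 and 162 CPM in Control 1 and 2 (0.72). Vegfa measured 275 and 72.7 CPM in Nanocapsule 1 and 2, against 93.1 and 81.7 CPM in Control 1 and 2 (0.97). For these genes Nanocapsule 2 lay at or below a Control library. Plin2 measured 1030.0 and 447 CPM in Nanocapsule 1 and 2, against 789.8 and 486 CPM in Control 1 and 2 (0.21). Bnip3 measured 489 and 241 CPM in Nanocapsule 1 and 2, against 251 and 181 CPM in Control 1 and 2 (0.76 ± 0.35). Egln3 measured 150.5 and 51.5 CPM in Nanocapsule 1 and 2, against 51.8 and 34.4 CPM in Control 1 and 2 (1.22 ± 0.51). The same shape was seen for Ankrd37 (1.31) and Mxi1 (0.53). Adm measured 104 and 17.6 CPM in Nanocapsule 1 and 2, against 15.4 and 21.6 CPM in Control 1 and 2 (1.60 ± 0.78). Over the whole class, only Nanocapsule 1 exceeded both Control libraries for Adm. Among the finer macrophage-like cells, each Control library lay below each Nanocapsule library for Adm, while among the monocyte-like cells the groups overlapped. The 5 members that did not pass were Pgf (29 and 8 UMIs in Nanocapsule 1 and 2, against 2 and 9 UMIs in Control 1 and 2), Loxl2, Car12, Lox and Stc2.

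Macrophage-like cells with an Arg1 UMI, the arginase that marks a class of tumour macrophages, carried more member RNA than those without in each library. The sums were 7136 and 5471 CPM in Nanocapsule 1 and 2 and 5785 and 5313 CPM in Control 1 and 2 with Arg1, and 4405 and 1546 CPM in Nanocapsule 1 and 2 and 2549 and 1825 CPM in Control 1 and 2 without it. Pigment transcripts were also higher in the cells with Arg1, at 2448 and 1003 CPM in Nanocapsule 1 and 2 and 2285 and 2178 CPM in Control 1 and 2, against 858 and 441 CPM in Nanocapsule 1 and 2 and 1341 and 681 CPM in Control 1 and 2 without it, and their part in the difference was not tested. Summed over the class, Arg1 measured 1323 and 835 CPM in Nanocapsule 1 and 2, against 321.5 and 235 CPM in Control 1 and 2 (1.96, edgeR adjusted p = 0.242). Median depth in the class was 11654 and 13850 UMIs in Nanocapsule 1 and 2, against 5988 and 9498 UMIs in Control 1 and 2. The share of cells with an Arg1 UMI, which also depends on depth, was 47.8% in Nanocapsule 1 (exact 95% interval 37.3 to 58.5%) and 26.4% in Nanocapsule 2 (19.0 to 34.8%). It was 25.4% in Control 1 (18.4 to 33.3%) and 23.5% in Control 2 (17.4 to 30.6%). In tumour-like cells, which should lack Arg1, the share was 0.971 to 1.88%, at library median depths of 38410 to 90148 UMIs in tumour-like cells against 5988 to 13850 UMIs in macrophage-like cells. The finer classes gave 20 of 26 members higher in both Nanocapsule libraries in the macrophage-like cells (17.9% of all genes), a median of 1.00 and 0 calls (17 members at an unadjusted p under 0.05, 6.38% of all genes), and 3 of 23 members higher and 0 lower in both Nanocapsule libraries in the monocyte-like cells (16.7% and 16.2% of all genes), with a median of 0.54. Nanocapsule 1 was again the highest library, for 26 of 26 members in the finer macrophage-like cells and 18 of 23 in the monocyte-like cells. The share over all genes was not taken for this order. Nanocapsule 2 held only 31 of the finer macrophage-like cells.

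Whether the Nanocapsule effect differed between the classes was tested by the class by treatment term of the same model. It called 0 of 30 members, beside 0.112% of all genes, and 5 members had an unadjusted p under 0.05 (3.62% of all genes). These were Egln3 (-1.11), Fam162a (-0.46), Selenbp1 (-0.77) and Narf (-1.02), whose log2 fold change was lower in tumour-like cells, and Epas1 (2.09), where it was higher. Without Nanocapsule 2 the term called 9 members, beside 1.6% of all genes, and without Nanocapsule 1 it called Hilpda alone, beside 1.22% of all genes.

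Lists of neighbouring pathways gave 0 calls for Nanocapsule against Control in either class, and their medians stand beside those of all genes given above. Of the machinery around hypoxia-inducible factor (Arnt, the elongins, Cited2 and others), 11 of 13 genes tested lay above 0 in tumour-like cells, with a median log2 fold change of 0.065, and 8 of 12 in macrophage-like cells, with a median of 0.11. Of 20 glycolysis and glucose uptake genes 17 lay above 0 in tumour-like cells, with a median of 0.10, and 17 of 19 in macrophage-like cells, with a median of 0.60. In tumour-like cells Aldoa measured 3263 and 2903 CPM in Nanocapsule 1 and 2, against 3532 and 2411 CPM in Control 1 and 2. Ldha and Pkm had the same order there, and Gapdh was higher in both Nanocapsule libraries. In macrophage-like cells Nanocapsule 1 was highest for all of these genes. Nanocapsule 2 lay below Control 1 for Aldoa and Ldha and above it for Pkm and Gapdh. What single libraries contributed to the list medians was not tested. Other hypoxia-inducible genes outside the 32 had medians of 0.20 in tumour-like cells (18 of 21 above 0) and 0.38 in macrophage-like cells (12 of 17), and genes of the amino acid and integrated stress response 0.24 (11 of 12) and 0.48 (8 of 8). Slc2a1, Pfkfb3, Aldoc and Vldlr were each counted in 2 of these lists. Between the classes, where 36.0% of all genes were higher and 27.2% lower in tumour-like cells, 11 of 20 glycolysis genes were higher in tumour-like cells, among them Ldha, Gapdh, Pkm, Pgk1 and Hk2, and 5 lower, namely Pfkfb3, Slc2a1, Pfkfb4, Slc16a3 and Pfkp. Of the machinery, Elob, Eloc and Siah1a were higher in tumour-like cells and Arnt, Cited2 and Ep300 lower, of 12 tested; of the other hypoxia-inducible genes 10 were higher and 7 lower of 22, and of the amino acid and stress genes 7 were higher and 2 lower of 12. Hmox1, the haem oxygenase that responds to oxidants as well as to hypoxia, measured 128 and 133 CPM in tumour-like cells of Nanocapsule 1 and 2, against 62.0 and 55.1 CPM in those of Control 1 and 2 (1.16, edgeR adjusted p = 0.169). The groups did not overlap for Hmox1, and in macrophage-like cells it measured 1810.0 and 1432 CPM in Nanocapsule 1 and 2, against 919 and 494.5 CPM in Control 1 and 2 (1.20, edgeR adjusted p = 1.0).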

How the data were processed

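Single-cell RNA of 4 tumour libraries, 2 per group, was measured with the 10x Genomics 3′ v2 kit, per the labels' protocols. The deposited files hold UMI counts per gene and barcode, unnormalized, with empty droplets included. The genome build is mm10, per the submitters' processing notes, which name Cell Ranger 2.1.1, while the header of the matrices names Cell Ranger 4, per the file headers. Strand use and annotation are not given in the sources used here. The members and gene lists were chosen with earlier results of these data known.

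Tumour-like cells were called by an order-of-magnitude rule (10% of the UMI count at the 99th percentile of the top 3000 barcodes), and macrophage-like cells, and both classes where compared, among barcodes with at least 1500 UMIs; cells needed 200 genes and at most 20% mitochondrial UMIs. Clustering used scanpy 1.11.5 (2000 variable genes without members and pathway genes, 30 components, Leiden resolution 1.0). Scrublet marked 17 of 7044 cells, too few to have worked, and no doublets were removed. Clusters were named where at least 3 fixed markers were detected at 5 CPM and the markers' median log2 fold change over the other cells was at least 3. For tumour-like clusters it was at least 2 over the clusters named first. Clusters led by markers of another class, or shallow with no own marker among their leading genes, stayed unnamed. These included 112 cells led by Fgf21 and Cdsn, with a median of 77060 UMIs. Counts were summed per library and class and tested with edgeR 4.0.16 (TMM, filterByExpr, quasi-likelihood, Benjamini-Hochberg adjustment over all genes tested at 0.05), on R 4.3.3; DESeq2 1.42.0, size factors, no filter, other cell sets, other clustering and leaving out each library were alternatives. With 2 against 2 libraries an exact permutation test cannot go below 0.333, so none was run. The scripts were tested on simulated data. Named with values were members with at least 50 CPM on average in either class, called in any fit, or not overlapping between groups. Of other genes, these were the 10 and 5 most closely correlated, members of 4 pathway lists, Hmox1 and Arg1. Bnip3, Ndrg1, Ankrd37, Car9, Adm, Mxi1, Higd1a, Fam162a, Hif1a, Lox and Loxl2 overlap a gene on the opposite strand, and Hif1a, Epas1 and Loxl2 one on the same strand, so part of their counts may not be their own. Intervals cover counting error only.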

Additional observations from a re-analysis of the deposited data

How the results depend on the processing

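Of the alternatives to the main results, 79 kept the side of the threshold and stayed within the spread, 13 moved and 1 reversed; for single members, 432 kept their call and direction, 17 gained a call, 9 lost one and 1 reversed. Leaving out each library gave 0 to 9 members called in tumour-like cells, with a median of -0.05 to 0.73, and 0 to 19 called in macrophage-like cells; the lone library left in a group is then assumed to vary like the others. Without Control 2 the tumour-like median reversed to -0.05. Without a filter on low counts 4 members were called in macrophage-like cells. The class by treatment term had a median log2 value over members of -0.67 to 0.27 when each library was left out. At Leiden resolution 2.0 it called Adm and Ankrd37, beside 66 of all 14763 genes. Under the order-of-magnitude rule it called Egln3 and Ndrg1, beside 126 of all 14956 genes. The median correlation in tumour-like cells was 0.368 at 4000 and 0.544 at 16000 UMIs per cell, and in macrophage-like cells 0.267 at 1500 UMIs and 0.405 for members with at least 0.2 UMIs per cell, so it rose with depth or level. The 99th percentile of other genes rose too, with 0.227 and 0.332 in the same tumour-like settings. In macrophage-like cells it was 0.273 at 1500 UMIs and 0.402 at the higher level, where 14 members remained. The promoter share was 59.3% with ACGTG alone. Car9 in macrophage-like cells reversed to -0.0019 without the tenth of cells highest in pigment UMIs. Among alternatives chosen after seeing the data, tumour-like cells without the 2 clusters highest in members gave a median of 0.16 and those with unnamed clusters 0.29, with 0 members called in both.

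With the replicate number as a replicate block, 0 members were called in either class, with medians of 0.34 in tumour-like and 0.66 in macrophage-like cells. In macrophage-like cells 15 members had an unadjusted p under 0.05 in place of 6, beside 548 of all 9067 genes in place of 295. Over all genes the block called 245 in tumour-like and 19 in macrophage-like cells, where the fits without it called 0. The deviations of same-numbered libraries correlated at 0.436 over 16203 genes in tumour-like and 0.235 over 9067 genes in macrophage-like cells, but there are only 2 pairs and the labels do not say what a number marks. Stc2 and Lox in both classes, and Pgf, Loxl2 and Car12 in macrophage-like cells, had too few UMIs for the test.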

Other observations

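Some members had higher levels per UMI in small classes outside the tumour-like and macrophage-like cells. In 43 fibroblast-like cells (5 and 5 in Nanocapsule 1 and 2, 22 and 11 in Control 1 and 2), where all 6 fibroblast markers were present, Loxl2 reached 416 CPM over the pooled cells (319 to 670 over the libraries) and Lox 415 CPM (159 to 863), and the collagen hydroxylase subunit P4ha2 reached 109 CPM. These cells carried pigment transcripts at 397 and 65.7 CPM in Nanocapsule 1 and 2, against 9226 and 4187 CPM in Control 1 and 2. A further cluster of 51 cells held all 6 endothelial markers (4228 to 5899 CPM summed) and all 5 neutrophil markers (2174 to 10910 CPM), so it is given no cell type. Epas1 reached 356 CPM there (153 to 628), beside Hilpda at 379 CPM, Plin2 at 359 CPM and Egln3 at 99.2 CPM. Stc2 gave 2 UMIs in tumour-like cells and 7 in T cell-like cells. With so few cells per library no test between groups was run on these classes.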
